A study of Mus musculus with 4 samples.

Results

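Fatty acid oxidation was examined in mouse small intestinal organoids through 8 genes, which are Cpt1a, Acadl, Acadm, Acadvl, Hadha, Hadhb, Ppargc1a and Pdk4. They were taken by symbol, and all 8 were found among the 55416 gene identifiers of the deposited tables. The rule held no measured value, but the 8 genes and the further lists below were chosen with earlier results of these data known. The organoids are epithelial cultures grown as hollow bodies in a basement-membrane gel. The 2 adult libraries came from C57BL/6 mice aged 4 to 8 weeks and the 2 fetal libraries from C57BL/6 embryos at E15.5. Both kinds were kept in the same commercial medium (IntestiCult), and the labels give no transgene, deletion or treatment for either group. The labels do not say whether the 2 libraries of a group came from separate animals or cultures, so each p-value reflects no more than how far these libraries spread, and that spread may be technical.

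In fatty acid oxidation, long-chain acyl groups enter mitochondria on carnitine and are then shortened by repeated cycles that release acetyl-CoA. CPT1A loads the acyl group onto carnitine at the outer membrane, and the acyl-CoA dehydrogenases ACADVL, ACADL and ACADM open each cycle on very long, long and medium chains. The trifunctional protein, built from HADHA and HADHB, carries out the remaining steps on long chains. PPARGC1A is a transcriptional co-activator of mitochondrial genes, and PDK4 is a kinase that switches off pyruvate dehydrogenase when fat is burned. Acetyl-CoA from the pathway feeds the citric acid cycle or the making of ketone bodies, which other tissues use as fuel. Fatty acid oxidation and ketone production are known features of the adult intestinal epithelium, including its absorptive and stem cells.

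The 8 genes stood lower in fetal than in adult organoids, but by unequal amounts. Among the 7 with enough counts to test, Acadvl and Cpt1a, the very-long-chain dehydrogenase and the entry enzyme, fell most, to 40.0% and 47.1% of their adult level in CPM, the counts divided by scaled library size. Hadha fell to 62.8%, whereas Acadl, Acadm and Hadhb stood at 73.2%, 70.2% and 72.1% of adult on that scale. In TPM, which also divides by transcript length and is not rescaled between libraries, these last 3 were at 96.0%, 93.0% and 89.4% of adult and were not called lower, although they were in CPM. Ppargc1a and Pdk4 were low in both groups, and Pdk4, which was not tested, stood at 17.5% of its adult CPM on very few counts. Among genes of ketone body metabolism, Bdh1 and Acat1 fell and Oxct1 rose.

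The upstream sequences of 5 of these genes are shown because Acadvl, Cpt1a and Acadm, which differ in how far they fell, each hold 1 copy of the hexamer AGGTCA, and because Hadha and Hadhb, whose products form 1 complex, lie head to head. AGGTCA is the half-site that nuclear receptors such as the PPARs, RXR and the estrogen-related receptors recognise. It was looked for on both strands in the 250 bases before each gene's start (RefSeq, build GRCm38.p6), and all 8 genes matched a sequence. The hexamer or its reverse complement TGACCT was found for 3 of the 8 genes and not for the other 5, against 14.0% of all 32851 such windows. Only bases outside annotated exons (GENCODE M21) are printed, 5′ to 3′ on the strand of the gene, with the hexamer in capitals. The windows are chr19:3323051-3323284 (plus strand) for Cpt1a, chr11:70015429-70015678 (minus strand) for Acadvl and chr3:153944644-153944893 (minus strand) for Acadm. The match ends 88 bases before the annotated start of Cpt1a, 81 before that of Acadvl and 243 before that of Acadm. The RefSeq starts of Hadha and Hadhb lie 272 bases apart on opposite strands, and chr5:30155163-30155247 is given on the plus strand, toward Hadhb. These 85 bases come from the Hadhb window, and the first 68 of them, up to 30155230, lie in the Hadha window too. The word shared in the label below holds for these 68 bases only. A match is a description of the letters in the window and not a measured binding site.
Cpt1a: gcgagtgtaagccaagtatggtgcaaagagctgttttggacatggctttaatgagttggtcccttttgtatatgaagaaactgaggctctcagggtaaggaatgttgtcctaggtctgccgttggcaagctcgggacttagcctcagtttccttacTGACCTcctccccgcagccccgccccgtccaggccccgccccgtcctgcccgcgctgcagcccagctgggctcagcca
Acadvl: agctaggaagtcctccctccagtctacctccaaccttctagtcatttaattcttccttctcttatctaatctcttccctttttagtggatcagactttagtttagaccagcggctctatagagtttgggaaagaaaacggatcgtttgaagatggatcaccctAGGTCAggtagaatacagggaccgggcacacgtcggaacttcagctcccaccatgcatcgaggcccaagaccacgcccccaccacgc
Acadm: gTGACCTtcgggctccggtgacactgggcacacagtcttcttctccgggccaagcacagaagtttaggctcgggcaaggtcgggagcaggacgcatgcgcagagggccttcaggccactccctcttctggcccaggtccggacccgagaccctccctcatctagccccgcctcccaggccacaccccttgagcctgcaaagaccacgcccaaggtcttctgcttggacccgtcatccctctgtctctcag
Hadha and Hadhb, shared: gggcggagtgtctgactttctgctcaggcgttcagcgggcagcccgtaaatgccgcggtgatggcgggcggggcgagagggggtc

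Library totals ran from 10862147 to 13061585 estimated counts. Mitochondrially encoded transcripts took 17.6% and 17.5% of the adult and 6.98% and 7.82% of the fetal counts. The scaling between libraries (TMM) put the log2 fold change of the median gene at 0.01, whereas it was 0.25 with plain library totals and 0.36 on log2(TPM + 1). Calls split into 4833 higher and 4664 lower with TMM, and into 6979 and 2973 with library totals. Each of the 7 tested genes below is therefore given on both scales, and the other genes on TPM only in part. The distance from the median gene is stated for each of the 7 whose call differed between the scales. Leaving out the mitochondrially encoded genes gave the same 7 calls among the 8 genes with TMM. TPM and library totals were not recomputed without them. Summed markers of mature enterocytes, the absorptive cells, were 1763 and 1748 TPM in adult and 435 and 424 TPM in fetal organoids, with 20 of 20 called lower with TMM and 17 lower and 1 higher on TPM. In bulk RNA, fewer cells of a type and less RNA per cell cannot be told apart. The 7 epithelial markers, led by Krt19 and Krt8, summed to 3110 and 3081 TPM in adult and 6999 and 6838 TPM in fetal organoids, with 6 called higher on TPM and 4 higher and 2 lower with TMM. The 10 mesenchymal markers summed to 3.69 and 4.54 TPM in adult and 37.5 in both fetal libraries. Some markers of muscle and fat were at 0 in all 4 libraries: Ckm and Myh6 for striated muscle, and Adipoq, Lep, Plin1 and Cfd for fat. The whole muscle list, led by Tnni2 and Acta1, summed to 18.0 and 21.5 TPM in adult and 31.7 TPM in both fetal libraries, with 2 of 3 tested genes higher and 1 lower, and the fat list to 1.67 to 2.32 TPM. Hepatocyte markers summed to 538 and 510 TPM in adult and 13.3 and 15.4 TPM in fetal organoids, led by Cps1 and Ttr, with Tat, Cyp7a1 and Fgb at 0 throughout. Only 3 of these 8 markers had enough counts to be tested with TMM, and the sum alone does not show hepatocytes. Immune markers summed to 3.01 and 4.65 TPM in adult and 15.2 and 15.0 TPM in fetal organoids, with 2 of 3 tested genes higher and 1 lower with TMM, and endothelial markers to between 0.23 and 0.78 TPM. The part of the markers that differ between groups in the results below was not tested.

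Of the 8 genes, 7 had enough counts to be tested, and all 7 were called lower in fetal organoids (edgeR's quasi-likelihood method with p-values adjusted by Benjamini-Hochberg over 14271 genes, threshold 0.05). In that test 32.7% of all genes were called lower, 33.9% higher and 66.5% in either direction. The median log2 fold change of the 7 was -0.61, against 0.01 for all genes. With limma on log2(TPM + 1), 3 of 7 were called lower, against 12.8% of the 14013 genes tested. The 2 adult libraries lay above the 2 fetal libraries on TPM for all 7, as for 19.0% of those 14013 genes. The log2 fold change kept its negative sign for all 7 under all 14 alternative settings. These numbers rest on 2 libraries a group, whose spread beyond counting noise was small (common coefficient of variation 0.033).

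**Figure D1:**
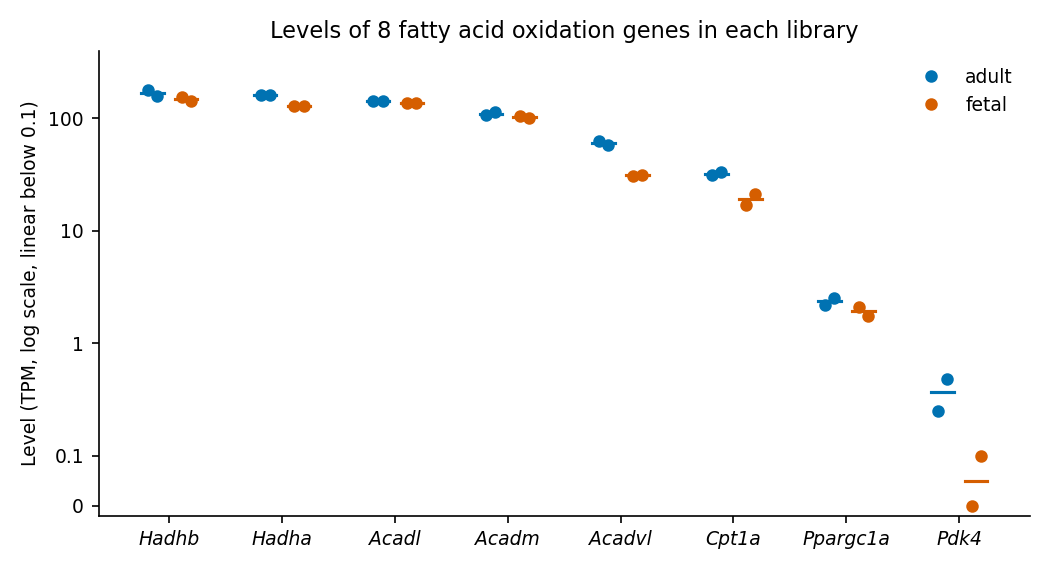
Level of each gene in TPM (vertical axis, logarithmic above 0.1 and linear below) in the 2 adult (blue) and 2 fetal (orange) libraries, with the group mean as a bar. The 4 most abundant genes lie above 100 TPM in all libraries, Acadvl and Cpt1a lie below them and are separated most between groups among the 7 tested genes, and Ppargc1a and Pdk4 lie near or below 2.54 TPM.

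Per transcript length, the trifunctional protein genes and the dehydrogenases Acadl and Acadm were the most abundant. In adult organoids Hadhb stood at 177 and 158 TPM and Hadha at 162 and 163 TPM, and these 2 neighbours overlapped. Acadl followed at 143 in both libraries, then Acadm at 107 and 113, Acadvl at 62.4 and 58.0, Cpt1a at 31.2 and 33.1, Ppargc1a at 2.21 and 2.54, and Pdk4 at 0.25 and 0.48 TPM. From Hadha downward no neighbours overlapped. In fetal organoids the order was the same except that Acadl, at 138 and 137 TPM, stood above Hadha, at 129 and 130 TPM. The 6 enzyme genes together summed to 683 and 668 TPM in adult and 576 and 563 TPM in fetal organoids.

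Cpt1a (ENSMUSG00000024900) encodes the carnitine palmitoyltransferase of liver and most other tissues, which sets the rate of entry into the pathway. The adult libraries held 96.9 and 95.5 CPM of it and the fetal libraries 44.7 and 46.0 CPM. The groups were far apart on this scale. This is a log2 fold change of -1.09 with an SE of 0.05 (edgeR, Benjamini-Hochberg adjusted p = 2.79e-09). On TPM, Cpt1a stood at 31.2 and 33.1 against 17.1 and 21.2, a log2 fold change of -0.73 ± 0.12 (limma, Benjamini-Hochberg adjusted p = 0.00602). The drop was 1.09 below the median gene on both scales. Dropping 1 library at a time gave -1.12 to -1.06.

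The partners of Cpt1a in the carnitine shuttle were lower too with TMM. Slc25a20, the carrier that takes acylcarnitine across the inner membrane, went from 24.7 down to 12.7 CPM (-0.96 ± 0.10 SE on the log2 scale). Cpt2, which returns the acyl group to CoA inside the mitochondrion, fell from 57.1 to 33.2 CPM (-0.78 ± 0.07 SE), but its log2 fold change on TPM was -0.11 and was not called by limma. The neuronal relative Cpt1c went the other way, from 3 summed adult counts to 245 fetal ones, which is 63.6-fold after scaling (95% interval from counting error 21.5 to 310). Cpt1b, the muscle form, held 22 and 0 adult and 5 and 6 fetal counts, too few for the main test. On TPM limma did not call it (log2 fold change 0.29).

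Among 14 further genes of fatty acid activation and the carnitine shuttle, 11 were tested, 7 of them lower and 4 higher, with a median log2 fold change of -0.67. On TPM, 12 were tested, with 4 lower, 4 higher and 4 not called. The acyl-CoA synthetases, which activate free fatty acids, divided. Acsl1 went from 138.5 down to 45.7 CPM (-1.60 ± 0.05 SE on the log2 scale), while Acsl5 rose from 292 to 483, Acsl4 from 52.3 to 98.7 and Acsl3 from 166 to 184.5 CPM; these 3 were named after their values were seen. Each kept its direction on TPM. Crot, a peroxisomal carnitine transferase, and Mlycd, which removes the CPT1 inhibitor malonyl-CoA, had log2 fold changes of -1.10 and -0.98.

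The 3 chain-length dehydrogenases did not fall alike. Acadvl (ENSMUSG00000018574) had 97.3 and 96.5 CPM in adult and 38.0 and 39.6 CPM in fetal organoids. Its log2 fold change of -1.32 ± 0.06 (SE, edgeR with Benjamini-Hochberg adjusted p = 5.75e-10) was the largest among the 7 tested genes, and ran from -1.36 to -1.29 as libraries were dropped in turn. On TPM it went from 62.4 and 58.0 to 30.9 and 31.7 (log2 fold change -0.92 ± 0.06 SE; limma, Benjamini-Hochberg adjusted p = 0.000466). Acadvl shares 2119 bases with Dvl2 on the opposite strand. Dvl2 held 256 and 238 counts in adult and 242 and 258 in fetal organoids, and the sources used here do not state whether strand was used in counting.

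Acadl (ENSMUSG00000026003) had 218 and 219 CPM in adult against 159 and 161 CPM in fetal organoids, a log2 fold change of -0.45 ± 0.03 (SE by edgeR, with Benjamini-Hochberg adjusted p = 1.59e-07). On TPM the adult libraries, both at 143, were just above the fetal ones at 138 and 137, and the difference of -0.06 ± 0.04 was not called (limma, Benjamini-Hochberg adjusted p = 0.261). Acadm (ENSMUSG00000062908) behaved alike, with 92.4 and 91.8 CPM in adult and 65.3 and 64.0 CPM in fetal organoids. Its log2 fold change was -0.51 ± 0.05 with TMM (edgeR, Benjamini-Hochberg adjusted p = 1.95e-06) and -0.10 ± 0.05 on TPM (limma, Benjamini-Hochberg adjusted p = 0.154). Relative to the median gene, Acadl and Acadm lay at -0.46 and -0.52 with TMM and at -0.42 and -0.47 on TPM. Whether these 2 genes are called lower thus differs between edgeR on TMM-scaled counts and limma on TPM, while their place below the median gene hardly does. The latter is largely built in, since a shift of scale moves a gene and the median alike. Scale and test change together in that comparison. With plain library totals edgeR still called both, at -0.20 for Acadl and -0.26 for Acadm (Benjamini-Hochberg adjusted p = 0.000175 and 0.000624).

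**Figure D2:**
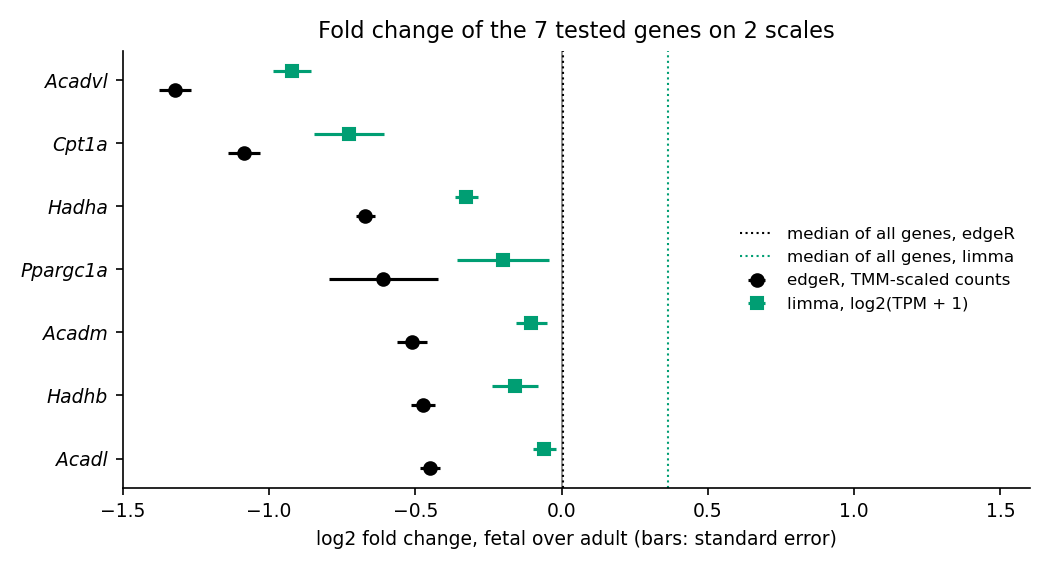
Log2 fold change of fetal over adult (horizontal axis, bars are standard errors) for the 7 tested genes, from edgeR on TMM-scaled counts (black circles) and limma on log2(TPM + 1) (green squares); dotted lines mark the median of all genes in each fit. All 14 points lie left of 0. The green median line at 0.36 lies about as far right of the black one at 0.01 as the green points lie right of the black ones. A shift of scale moves points and median line alike.

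Hadha and Hadhb encode the 2 subunits of the trifunctional protein. Hadha (ENSMUSG00000025745) had 279 and 277.5 CPM in adult and 174 and 175.5 CPM in fetal organoids, and fell by 0.67 on the log2 scale (± 0.03 SE by edgeR, with Benjamini-Hochberg adjusted p = 2.14e-09). It was called on TPM as well, from 162 and 163 to 129 and 130 (log2 fold change -0.33 ± 0.04 SE; limma, Benjamini-Hochberg adjusted p = 0.00243). Hadhb (ENSMUSG00000059447) had 149 and 143 CPM in adult and 104 and 107 CPM in fetal organoids (log2 fold change -0.47 ± 0.04 SE by edgeR, with Benjamini-Hochberg adjusted p = 7.27e-07). Its TPM of 177 and 158 against 157 and 144 nearly touched, and the difference was not called (-0.16 ± 0.08; limma, Benjamini-Hochberg adjusted p = 0.137). Relative to the median gene, Hadhb lay at -0.48 with TMM and at -0.52 on TPM. The ratio of Hadha to Hadhb within a library, on TPM, was 0.914 and 1.03 in adult and 0.827 and 0.904 in fetal organoids. On that scale the gap between groups was smaller than the spread within either. In CPM, which takes no transcript lengths, Hadha fell by more than Hadhb. Their log2 fold changes of -0.67 ± 0.03 and -0.47 ± 0.04 lay further apart than these SEs.

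Ratios within a library do not depend on scaling between libraries and show how unequal the falls were. Acadvl stood at 0.584 and 0.513 of the Acadm level in adult organoids and at 0.297 and 0.315 in fetal organoids. Cpt1a stood at 0.219 and 0.232 of the Acadl level in adult and at 0.124 and 0.155 in fetal organoids. By contrast, Acadm stood at 0.748 and 0.793 of Acadl in adult and 0.757 and 0.736 in fetal organoids, and these ranges overlapped on TPM. All these are ratios of TPM, so transcript lengths enter them, and ratios of counts were not computed. The 2 measures can spread differently: Cpt1a in fetal organoids held 44.7 and 46.0 CPM but 17.1 and 21.2 TPM. With 2 libraries against 2, the smallest p that an exact two-sided permutation test can give is 0.333, so no ratio was tested. The pairs named here were chosen from 21 after their values were seen. Ratios show unequal change only, not which gene of a pair moved.

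**Figure D3:**
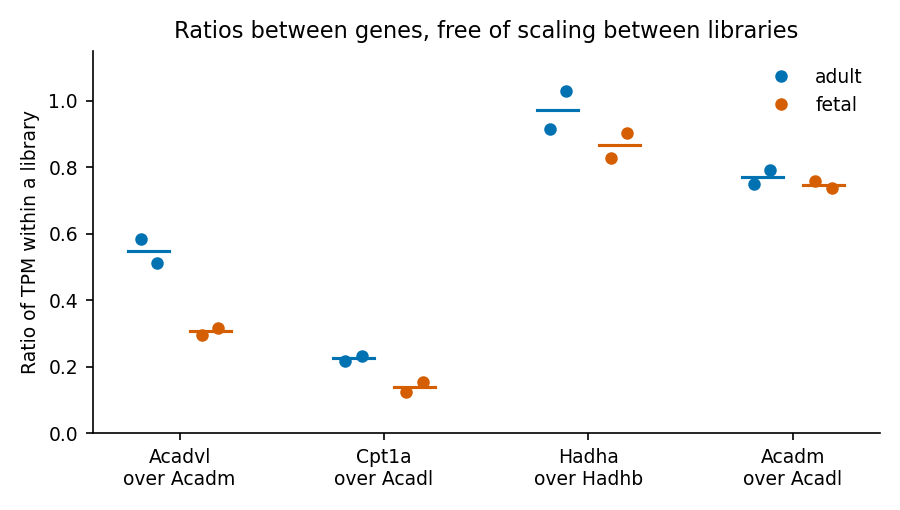
Ratio of TPM between 2 genes of the same library (vertical axis, linear from 0) for 4 pairs, with the 2 adult libraries in blue, the 2 fetal libraries in orange and bars at the group means. Acadvl over Acadm and Cpt1a over Acadl are lower in both fetal libraries, and Acadm over Acadl overlaps between groups.

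Ppargc1a (ENSMUSG00000029167), the co-activator PGC-1alpha, was low in all libraries. The adult libraries held 97 and 96 counts and the fetal libraries 97 and 66, or 8.50 and 9.64 against 6.78 and 5.02 CPM. The groups did not overlap, but fetal replicate 1 lay about midway between adult replicate 1 and fetal replicate 2. The log2 fold change was -0.61 ± 0.19 (SE by edgeR, with Benjamini-Hochberg adjusted p = 0.0119). Relative to the median gene, Ppargc1a lay at -0.615 with TMM and at -0.56 on TPM. The call was lost without fetal replicate 2 (-0.43, edgeR adjusted p = 0.0723), with library totals (-0.36, adjusted p = 0.103), with DESeq2 (adjusted p = 0.0682) and on TPM (limma, adjusted p = 0.315 and 0.338), where 0.00133 to 0.338 is the range over all 14 alternatives, all Benjamini-Hochberg adjusted.

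Ppargc1b, the paralogue of Ppargc1a, went from 14.6 and 15.9 down to 3.63 and 4.42 CPM (log2 fold change -1.92 ± 0.16 SE by edgeR, with Benjamini-Hochberg adjusted p = 4.3e-07). On TPM, Ppargc1b stood above Ppargc1a in both adult libraries, at 4.93 and 5.69 against 2.21 and 2.54. In fetal organoids the levels of the pair overlapped, at 1.62 and 1.92 TPM for Ppargc1b against 2.12 and 1.76 for Ppargc1a. The transcription factors that use these co-activators divided. Ppara, the fatty acid receptor, went from 10.4 and 9.24 to 0.349 and 0.609 CPM (log2 fold change -4.35 ± 0.30 SE), while Ppard, a second fatty acid receptor, rose from 10.3 and 13.2 to 37.8 and 33.3 CPM (1.61 ± 0.11 SE). Pparg was not called on either scale, at -0.17 with TMM and 0.23 on TPM. Esrrg, an estrogen-related receptor of oxidative tissues, fell from 48.3 to 1.12 CPM (-5.41 ± 0.16 SE) and Creb3l3, a membrane-bound factor of liver and gut lipid genes, from 11.7 to 0.676 CPM (-4.06 ± 0.31 SE; -5.21 to -3.48 as libraries were dropped in turn). Hnf4a, a factor of enterocyte genes, fell from 772 to 258.5 CPM (-1.58 ± 0.04 SE). Of 19 tested regulators, 12 were lower, 3 higher and 4 not called, with a median log2 fold change of -0.55. On TPM, 9 were lower, 4 higher and 6 not called.

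Pdk4 (ENSMUSG00000019577) was close to the limit of detection. The adult libraries held 8 and 6 counts and the fetal libraries 0 and 3, or 0.25 and 0.48 against 0 and 0.1 TPM, and had too few counts for the main test. Adult over fetal, the summed counts stood 5.99 to 1 after scaling for depth (95% exact interval 1.67 to 32.5). Intervals cover counting error only. Without a filter on low counts edgeR called it (Benjamini-Hochberg adjusted p = 0.0316), and DESeq2 did not (adjusted p = 0.197).

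The other pyruvate dehydrogenase kinases were more abundant than Pdk4 in each library. Pdk1 went from 187 down to 89.1 CPM (-1.07 ± 0.04 SE on the log2 scale) and Pdk2 from 20.3 to 3.39 CPM (-2.58 ± 0.15 SE). Pdk3 rose from 24.5 to 35.9 CPM (0.55 ± 0.08 SE), and all 3 kept direction and call on TPM. Pdha1, the catalytic subunit that these kinases phosphorylate, fell by 0.67 on the log2 scale. Of 10 genes of the complex, its kinases and its phosphatases, 8 were lower, 1 higher and 1 not called with TMM, with a median log2 fold change of -0.39. On TPM, where the median was 0.03, 3 were lower, 1 higher and 6 not called, and with library totals 5 were lower and 1 higher.

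Beyond the 8 genes, all 16 listed genes of the mitochondrial oxidation spiral and its helper enzymes were tested, and 15 were lower, none higher and 1, Acad9, not called (-0.18 ± 0.08 SE). Their median log2 fold change was -0.999. On TPM 10 were lower, none higher and 6 not called. Hadh, the short- and medium-chain hydroxyacyl-CoA dehydrogenase, went from 260.5 and 272 CPM to 68.3 and 63.7 CPM (log2 fold change -2.01 ± 0.05 SE), a larger fall than in any of the 7 tested genes above. Acad12 and Acad10, acyl-CoA dehydrogenase relatives at low levels, had log2 fold changes of -2.06 and -1.65. Genes for carrying electrons onward from the acyl-CoA dehydrogenases also fell, with log2 fold changes of -1.16 for Etfa, -0.84 for Etfb and -1.34 for Etfdh, and were called on TPM as well.

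Peroxisomes shorten fatty acids too long for mitochondria. Of 13 tested genes of this list 11 were lower, none higher and 2 not called on both scales, with a median log2 fold change of -0.95 with TMM. Ehhadh, the bifunctional enzyme of the peroxisomal cycle, had 69.2 and 71.6 CPM in adult and 6.36 and 5.79 CPM in fetal organoids (log2 fold change -3.53 ± 0.08 SE). Acox2, an oxidase of branched chains, had a log2 fold change of -4.42 (154 adult and 9 fetal counts), and the thiolase Acaa1b one of -3.32, which is uncertain since it has a close copy, Acaa1a.

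In ketone body metabolism, genes moved in both directions. Bdh1, which interconverts the 2 main ketone bodies, fell from 186 to 60.3 CPM (-1.62 ± 0.04 SE) and the thiolase Acat1 from 178 to 66.9 CPM (-1.42 ± 0.05 SE). Oxct1, which activates ketone bodies for use as fuel, rose from 227 and 229 CPM to 406.5 and 402 CPM (0.83 ± 0.03 SE). Of 4 tested genes 2 were lower and 2 higher, the other higher gene being the monocarboxylate transporter Slc16a1 (0.34 ± 0.05 SE). The same counts were found on TPM.

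**Figure D4:**
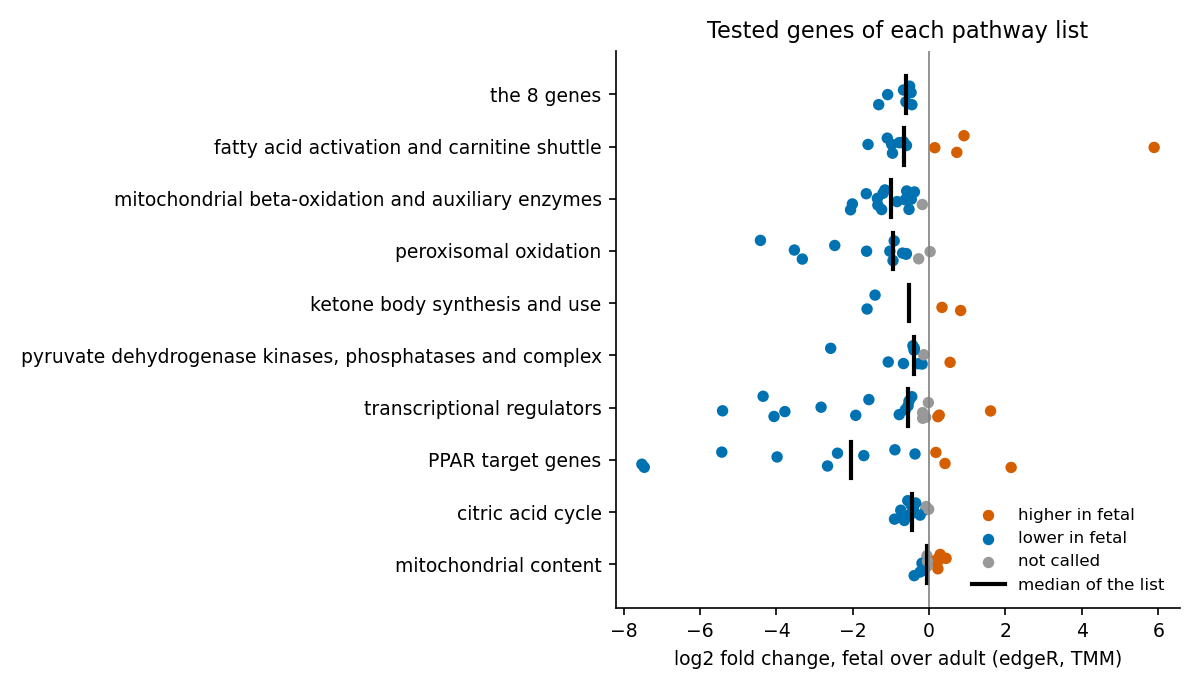
Log2 fold change of fetal over adult (horizontal axis, edgeR with TMM) for each tested gene of the 8 genes and of 9 further lists (rows); orange points were called higher, blue lower and grey not called, and black bars are list medians. Medians run from -2.06 for PPAR target genes to -0.05 for genes of mitochondrial content, and the 7 tested genes span a narrow range from -1.32 to -0.45.

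Genes known as targets of the PPAR receptors covered the widest range. Of 12 tested, 9 were lower and 3 higher (7 and 3 of 11 on TPM), with a median log2 fold change of -2.06. Slc27a2, a fatty acid transporter and synthetase, had 1329 adult and 9 fetal counts (-7.52 on the log2 scale, and -8.70 to -6.83 as libraries were dropped in turn). The fatty acid carriers Fabp1 and Fabp2, which are also enterocyte markers, had log2 fold changes of -7.46 and -5.43. Vnn1, a pantetheinase that releases a building block of CoA, rose from 1.67 to 7.49 CPM (2.15 ± 0.24 SE).

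For comparison, genes of the citric acid cycle that receives acetyl-CoA had a median log2 fold change of -0.45, with 14 of 16 lower and none higher with TMM, led by Sdhc (-0.91), Idh3b (-0.74) and Sdhb (-0.66). With library totals 11 were lower and 3 higher, and on TPM 4 were lower and 4 higher. Genes of general mitochondrial content, such as import channels and chaperones, had a median of -0.05, with 7 higher, 6 lower and 3 not called of 16. On TPM 14 of these were higher and none lower, against 49.6% of all genes higher. The import and channel genes Vdac2, Tomm40 and Tomm20 rose by 0.44, 0.30 and 0.29 on the log2 scale with TMM, and Vdac1 fell by 0.39 with TMM but was not called on TPM. Relative to the median gene, the 7 tested genes lay at -0.615 (median) with TMM and -0.56 on TPM. The mitochondrial content list lay at -0.05 and -0.01, and the oxidation spiral list at -1.005 and -0.96. The distance of these 3 sets from the median gene was nearly the same on both scales, although their calls were not. A shift of scale moves every gene and the median alike, so this likeness is largely built in and is no separate result.

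For each gene the most similar profile over the 4 libraries was sought among about 9314 other genes, as the smallest root mean square difference of centred log2 CPM. It was Kmt2c for Cpt1a (0.0128), Qser1 for Acadl (0.00634), Picalm for Acadm (0.00342), Cdhr5 for Acadvl (0.00483), Pdha1 for Hadha (0.00318), Ndufv2 for Hadhb (0.0058) and Cep97 for Ppargc1a (0.0561). With 4 libraries in 2 groups, such likeness says little more than that the fold changes are near equal. Pdha1, for instance, had 474.5 and 469 CPM in adult and 295 and 297 CPM in fetal organoids.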

How the data were processed

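Poly-A selected RNA was sequenced in 4 libraries, 2 adult and 2 fetal. The authors' deposited tables hold expected counts (RSEM estimated counts, not normalized) and TPM (computed by the authors from transcript lengths) per Ensembl gene, per the file headers. FastQC, Trim Galore, STAR 2.7.3a, RSEM 1.3.3 and the builds GRCm39 and mm10 are listed in the submitters' processing notes without roles; annotation and strand setting are not given in the sources used here. Names came from GENCODE M21 (52083 of 55416 identifiers).

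Counts were rounded and tested with edgeR 4.0.16 (R 4.3.3): TMM, filterByExpr by group, quasi-likelihood F-test between the groups, Benjamini-Hochberg threshold 0.05. CPM use TMM-scaled library sizes. TPM were tested with limma 3.58.1 on log2(TPM + 1), for genes with at least 1 TPM in 2 libraries; fold changes on that scale understate low genes. DESeq2 1.42.0 was an alternative. A count of 0 allows up to 3 counts, or 0.23 to 0.276 CPM of library totals. Within groups, libraries differed by more than sampling noise (chi-square per degree of freedom 3.30 and 2.81). Each was counted as 1 library, although such a spread cannot show whether they came from separate animals or cultures. The fitting steps were tested on simulated data. The 8 genes and all lists were chosen with earlier results of these data known. In each list the 3 called genes with the largest fold change in the commoner direction and 1 in the other were named, at 1 CPM or more, plus genes that act with 1 of the 8; others were named after their values were seen. Of the listed genes, 3 are not reported here and enter no list count or median.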

Additional observations from a re-analysis of the deposited data

How the results depend on the processing

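The calls were recomputed under 14 alternatives. Of 98 values of the 7 tested genes, 87 kept direction and call, 11 lost the call and 0 changed sign. The lost calls were those of Acadl, Acadm and Hadhb on TPM and of Ppargc1a under 5 settings; those of Acadvl, Cpt1a and Hadha were lost under none of the 14. The count of the 8 genes called lower was 7 with TMM and 3 with limma on log2(TPM + 1) and 3 on log2(TPM + 0.1). Over all genes, 4664 were lower with TMM, 2973 with library totals, 1796 on log2(TPM + 1) and 1752 on log2(TPM + 0.1). These settings move the median of all genes, as given above. With the replicate number as a block, 4765 genes were higher and 4584 lower, and 7 of the 8 genes were lower. The labels do not say that a number pairs libraries, and the within-group differences of same-numbered libraries correlated at -0.01 across 14271 genes. Of 252 counts for the 9 other lists, 235 stayed within 1.5 times. Depth limits Pdk4, with 17 counts in all, and Ppargc1a, with 66 to 97 counts a library.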
